A study of Mus musculus with 6 samples.

Results

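Keratin genes were followed in RNA-Seq of distal colon tissue from mice lacking the long noncoding RNA Gm31629 and from WT mice. Genes were taken from the deposited table by symbol, as every row named Krt followed by a number and at most 1 letter, which gave 38 of the 27546 genes listed. They were divided into 5 simple keratins (Krt7, Krt8, Krt18, Krt19, and Krt20), 15 squamous keratins, 12 hair keratins, and 6 other keratins (Krt23, Krt42, Krt80, Krt88, Krt90, and Krt222). The groups were 3 Gm31629-/- mice and 3 WT mice, with 1 library per mouse. All 6 were on the C57BL/6 strain, were 8 weeks old, drank 3% DSS, the sulfated polysaccharide used to induce colitis, for 7 days, and were killed on day 8. No mice without DSS were among them, so each difference below is between genotypes under injury. The knockout deletes the Gm31629 sequence in the germline, so that it is missing from every tissue, and the WT mice were littermates. Gm31629 itself was not analysed here, so the genotype labels were not checked against its level. The methods also state that RNA was pooled from the mice of each genotype, whereas the table holds a column per mouse, and p-values here measure the spread between these columns.

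Keratins are the intermediate filament proteins of epithelial cells. A filament is built from pairs of an acidic type I and a basic type II keratin, so that each epithelium makes at least 1 gene of either type. Columnar epithelium such as that of the colon uses the simple keratins, with KRT8 as the main type II chain and KRT18, KRT19, and KRT20 as type I partners, where KRT20 belongs to mature cells of the upper crypt and surface. Stratified squamous epithelium, as in skin, esophagus, and anus, replaces them by KRT5 and KRT14 in its basal layer and by other pairs above it, and hair and nail have a set of their own.

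Values were FPKM, which are fragments divided by gene length and by library depth, so that levels of different genes can be compared. A library held 18006000 to 18795300 fragments by an estimate from the size of 1 fragment. Genes were tested with limma on log2(FPKM + 1) over the 14657 genes with a mean of at least 0.5 FPKM, and calls required a log2 fold change above 1 or below -1 together with an adjusted p (Benjamini-Hochberg) under 0.05. By this rule 18.4% of all tested genes were called higher and 4.64% lower in Gm31629-/- mice, and the groups did not overlap for 57.8%. With libraries rescaled to 15 epithelial marker genes, 4628 genes were called higher and 231 lower in place of 2704 and 680, and the median log2 fold change of all tested genes was 0.64 in place of 0.15. With rescaling by the median ratio it was 0.02. Transcripts of 4 Y-linked genes were present (2.03 to 15.4 FPKM) and Xist was nearly absent (0.00606 FPKM) in Gm31629-/- mouse 1. The other 5 libraries had these 4 genes at 0 and Xist at 8.35 to 13.8 FPKM, whereas the methods name male mice. Each keratin whose call changes without this library is given with its value without it. Smooth muscle markers stood far apart between the groups, with a summed level of 1010.6 to 1536.5 FPKM in Gm31629-/- mice against 8.78 to 24.8 FPKM in WT mice and 7 of 8 genes called higher (2 of the 7 had passed the filter only through the Gm31629-/- mice), and the part of this in the keratin values was not tested.

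The 38 keratin genes lie in 2 clusters of the mouse genome (GRCm38, with positions from GENCODE M21). The cluster on chromosome 11, from 99232761 to 100269871, holds 18 listed genes, which are all of type I. The cluster on chromosome 15, from 101347444 to 102032027, holds 20 listed genes, of which 19 are of type II. The exception is the type I gene Krt18, which is next to its partner gene Krt8 at the end of the type II cluster. A further 16 keratin symbols of the annotation had no row in the table (12 hair and 4 squamous keratins) and were not analysed here.

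The promoters of the keratins on which the results turn are shown first, so that the letters before neighboring genes can be compared. Windows run from 250 bases before to 50 bases after the RefSeq transcription start (GRCm38.p6), in the direction of transcription, and were matched by symbol for 22 of the 38 keratins. Krt19, Krt17, and Krt80 were not matched. Capitals mark 4 sets of letters searched on both strands, namely the TATA box (TATAAA), an AP-1 site (TGANTCA), a CDX site (CNATAAA), and a GC box (GGGCGG). Krt8 and Krt7 are type II genes that were lower in Gm31629-/- mice, Krt18 and Krt20 are type I genes that were not called, and Krt23 is a type I gene that was higher.
Krt8: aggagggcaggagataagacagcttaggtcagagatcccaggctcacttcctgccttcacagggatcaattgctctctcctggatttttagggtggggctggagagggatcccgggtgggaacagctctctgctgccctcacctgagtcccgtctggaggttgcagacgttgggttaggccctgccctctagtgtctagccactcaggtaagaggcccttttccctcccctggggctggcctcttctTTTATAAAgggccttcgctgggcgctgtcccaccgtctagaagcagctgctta
Krt7: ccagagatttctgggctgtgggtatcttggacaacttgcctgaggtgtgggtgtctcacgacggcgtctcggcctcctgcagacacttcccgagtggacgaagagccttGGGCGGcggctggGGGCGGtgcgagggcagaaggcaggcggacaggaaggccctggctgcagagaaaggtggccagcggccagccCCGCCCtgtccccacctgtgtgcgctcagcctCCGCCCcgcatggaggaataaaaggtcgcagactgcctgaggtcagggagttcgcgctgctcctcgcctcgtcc
Krt18: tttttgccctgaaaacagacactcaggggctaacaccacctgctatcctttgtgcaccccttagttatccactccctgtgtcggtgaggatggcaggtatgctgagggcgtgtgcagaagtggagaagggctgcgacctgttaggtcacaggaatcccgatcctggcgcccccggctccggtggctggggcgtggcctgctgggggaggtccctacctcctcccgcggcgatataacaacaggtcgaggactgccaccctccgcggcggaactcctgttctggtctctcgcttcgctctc
Krt20: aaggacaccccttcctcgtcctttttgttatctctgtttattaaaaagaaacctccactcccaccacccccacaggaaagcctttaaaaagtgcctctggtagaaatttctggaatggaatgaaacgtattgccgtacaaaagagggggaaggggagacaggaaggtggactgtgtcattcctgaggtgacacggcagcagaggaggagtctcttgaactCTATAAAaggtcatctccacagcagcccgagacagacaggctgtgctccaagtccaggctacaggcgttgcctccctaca
Krt23: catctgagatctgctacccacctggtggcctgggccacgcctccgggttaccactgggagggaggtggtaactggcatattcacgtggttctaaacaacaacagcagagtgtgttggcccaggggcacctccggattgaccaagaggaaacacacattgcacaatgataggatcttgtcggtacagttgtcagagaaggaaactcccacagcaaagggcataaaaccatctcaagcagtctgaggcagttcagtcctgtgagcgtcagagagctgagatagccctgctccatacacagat

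The promoter window of Krt8 (chr15:102004293-102004592, minus strand) held the TATA letters across the annotated start itself (bases -1 to 4, and bases -3 to 2 on the reverse strand), not before it. That of Krt20 (chr11:99438104-99438403, minus strand) held the TATA letters before the start (bases -29 to -24), where they overlap the letters of a CDX site. The window of Krt7 (chr15:101412153-101412452, plus strand) held 4 GC boxes and no TATA letters. Those of Krt18 (chr15:102027966-102028265, plus strand) and Krt23 (chr11:99493071-99493370, minus strand) held none of the 4 sets of letters. Among the 22 keratin windows 10 held the TATA letters at any position, a share of 45.5%, against 14.2% of all 27025 windows. The CDX letters were in 7 keratin windows against 11.3% of all windows, the GC box in 2 against 35.9%, and the AP-1 letters in 1, that of Krt13, against 7.93%. The letters CTATAAA hold both the TATA and the CDX set, so the counts of these sets are not independent. Of the 10 windows of keratins with a mean of at least 0.5 FPKM, 3 held the TATA letters and 2 the CDX letters. These are matches of letters only and show no binding.

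Of the 38 keratins, 15 passed the filter on mean FPKM, namely all 5 simple keratins, 3 squamous, 3 hair, and 4 other keratins. For 6 of them (Krt13, Krt14, Krt17, Krt80, Krt90, and Krt222) the WT mean was under 0.5 FPKM, so that they passed only through the Gm31629-/- mice and their direction was set by the filter. In Gm31629-/- mice 3 of the 15 tested keratins were called lower (Krt8, Krt7, and Krt19), where 4.64% of all genes were, and 2 were called higher (Krt23 and Krt80), where 18.4% of all genes were. At an adjusted p under 0.05 in limma and any fold change, 4 were higher (28.9% of all genes) and 3 lower (14.6% of all genes). Of the 15, 6 were higher in every Gm31629-/- mouse than in any WT mouse (36.3% of all genes) and 3 were lower in every one (21.5% of all genes). Without Gm31629-/- mouse 1 the counts were 0 lower and 3 higher, because the log2 fold changes of the 3 lower genes came to between -0.91 and -0.87. Without any 1 of the WT mice the counts were 2 lower and 1 higher. After scaling to epithelial markers they were 0 lower and 5 higher (Krt14, Krt17, Krt23, Krt80, and Krt90).

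**Figure D1:**
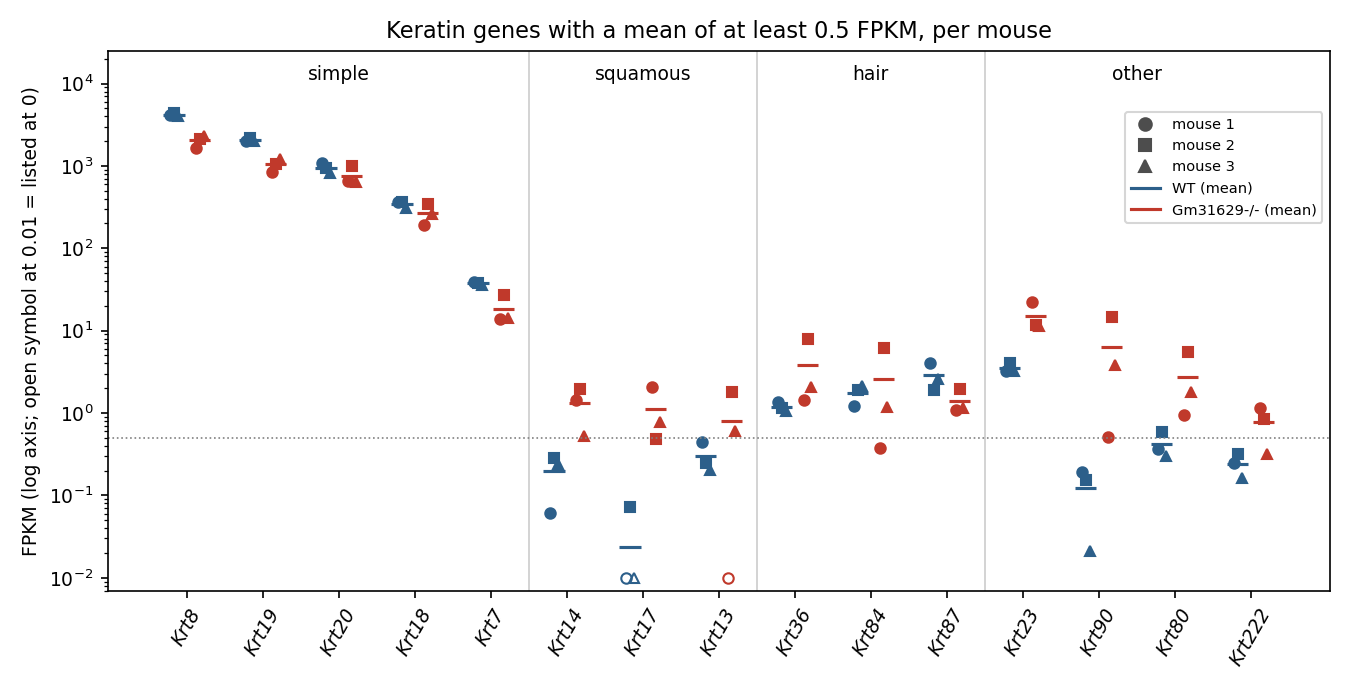
FPKM (log axis) of the 15 keratins that passed the filter in each mouse, in blue for WT and in red for Gm31629-/-, with a horizontal bar at the group mean, a symbol for each mouse number, and open symbols for values listed at 0. The dotted line is the filter at 0.5 FPKM. The simple keratins lie between 13.8 and 4332 FPKM, and no other keratin exceeds 22.0 FPKM in any library.

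Simple keratins made up nearly all keratin RNA in every library. They summed to 3367, 4549.9, and 4459 FPKM in Gm31629-/- mice 1 to 3 and to 7698, 7856, and 7221 FPKM in WT mice 1 to 3. Each Gm31629-/- mouse was below each WT mouse, and the mean was 0.543 times that of WT. Their share of all keratin FPKM was 98.8% to 99.4% in Gm31629-/- mice and 99.8% in each WT mouse. All keratins together took 0.976%, 1.37%, and 1.249% of the summed FPKM in Gm31629-/- mice and 2.19%, 2.28%, and 2.05% in WT mice.

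Krt8 (ENSMUSG00000049382, chromosome 15, 101996698 to 102004482), the main type II chain of columnar epithelium, was the most abundant keratin in all 6 libraries. It had 1649.6, 2144, and 2334 FPKM in Gm31629-/- mice 1 to 3 and 4204, 4332, and 4058 FPKM in WT mice 1 to 3. The 2 groups were far from overlapping, and WT mice differed little from each other. In limma the log2 fold change was -1.05 with a standard error of 0.21 (adjusted p = 0.00777), from a mean of 4198 ± 137 FPKM (SD, n = 3) in WT mice to 2042 ± 353 FPKM (SD, n = 3) in Gm31629-/- mice. Without Gm31629-/- mouse 1 it was -0.91 (adjusted p = 0.0201), which no longer passed the fold threshold. A processed copy, Krt8-ps, was listed at 4.26 to 9.73 FPKM in Gm31629-/- mice and 14.5 to 17.3 FPKM in WT mice, and reads of the pair could be shared.

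Krt19 (ENSMUSG00000020911, chromosome 11, 100140810 to 100148665), the smallest type I keratin and a partner of KRT8, changed by nearly the same factor as Krt8. It had 854, 1053, and 1217 FPKM in Gm31629-/- mice and 2015, 2186, and 2001 FPKM in WT mice. All 3 Gm31629-/- mice were below all 3 WT mice. In limma the log2 fold change was -1.002 with a standard error of 0.20 (adjusted p = 0.00698), just past the fold threshold, and it was -0.87 (adjusted p = 0.017) without Gm31629-/- mouse 1 and -0.96 (adjusted p = 0.0305) without WT mouse 2. Krt7 (ENSMUSG00000023039, chromosome 15, 101411043 to 101430313), a type II keratin of ducts and glands, was scarce beside Krt8, at 0.00608 to 0.0126 times its level. It had 13.8, 27.02, and 14.2 FPKM in Gm31629-/- mice and 38.8, 37.5, and 35.8 FPKM in WT mice. Here Gm31629-/- mouse 2 lay nearest to WT, and the groups did not overlap. In limma the log2 fold change was -1.05 with a standard error of 0.25 (adjusted p = 0.0149). It was called in 2 of the 6 fits that each left out 1 mouse. The fold was -0.89 without Gm31629-/- mouse 1 and -0.91 without Gm31629-/- mouse 3, and the adjusted p was 0.0522 without WT mouse 1 and 0.0511 without WT mouse 3.

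The other 2 type I simple keratins were not called. Krt18 (ENSMUSG00000023043, chromosome 15, 102028180 to 102032027), the classical partner of KRT8, had 191, 342, and 261 FPKM in Gm31629-/- mice and 362, 367, and 307 FPKM in WT mice. Gm31629-/- mouse 2 was inside the WT range, and in limma the log2 fold change was -0.42 with a standard error of 0.23 (adjusted p = 0.178). Krt20 (ENSMUSG00000035775, chromosome 11, 99428403 to 99438150), the keratin of mature surface cells, had 658, 984, and 633 FPKM in Gm31629-/- mice and 1078.5, 933, and 819 FPKM in WT mice. The groups overlapped, again through Gm31629-/- mouse 2, and in limma the log2 fold change was -0.33 with a standard error of 0.23 (adjusted p = 0.268). The log2 fold changes of Krt18 and Krt20 without Gm31629-/- mouse 2 were -0.62 and -0.54 (limma adjusted p = 0.0387 and 0.0427), still short of the fold threshold, and without Gm31629-/- mouse 1 that of Krt18 was -0.20. These p-values do not show that Krt18 and Krt20 were alike in the groups.

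**Figure D2:**
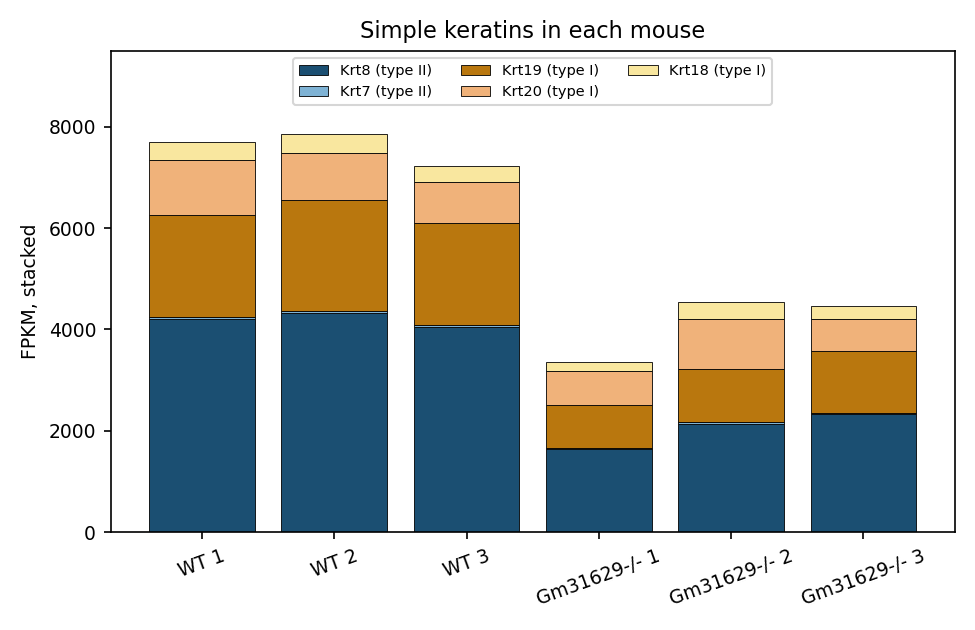
FPKM of the 5 simple keratins stacked for each mouse on a linear axis from 0, with type II chains in blues at the base and type I chains in brown, orange, and yellow above. The WT bars reach 7221 to 7856 FPKM and the Gm31629-/- bars 3367 to 4549.9 FPKM, and the Krt7 band, at 38.8 FPKM or less, is barely visible.

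Ratios between keratins of the same library do not depend on how libraries are scaled. The ratio of Krt19 to Krt8 was 0.518, 0.491, and 0.522 in Gm31629-/- mice and 0.479, 0.505, and 0.493 in WT mice, which overlapped. The ratio of Krt18 to Krt8 was 0.116, 0.159, and 0.112 in Gm31629-/- mice and 0.0861, 0.0847, and 0.0758 in WT mice, higher in each Gm31629-/- mouse than in each WT mouse. The ratio of Krt20 to Krt8 was 0.399, 0.459, and 0.271 in Gm31629-/- mice and 0.257, 0.215, and 0.202 in WT mice, with the third Gm31629-/- mouse close above the WT range. Over all listed keratins, type I genes summed to 1733, 2405, and 2129 FPKM and type II genes to 1667, 2200.5, and 2356 FPKM in Gm31629-/- mice. In WT mice type I genes summed to 3462, 3493, and 3134 FPKM and type II genes to 4249, 4375, and 4099 FPKM. The ratio of type I to type II RNA was thus 1.04, 1.09, and 0.903 in Gm31629-/- mice and 0.815, 0.799, and 0.765 in WT mice, and the groups did not overlap. Krt19 made up 49.3%, 43.8%, and 57.2% of type I FPKM in Gm31629-/- mice and 58.2%, 62.6%, and 63.9% in WT mice. Krt18 made up 11.0%, 14.2%, and 12.3% in Gm31629-/- mice and 10.5%, 10.5%, and 9.81% in WT mice. These ratios were chosen after the levels had been seen and are given with no test.

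**Figure D3:**
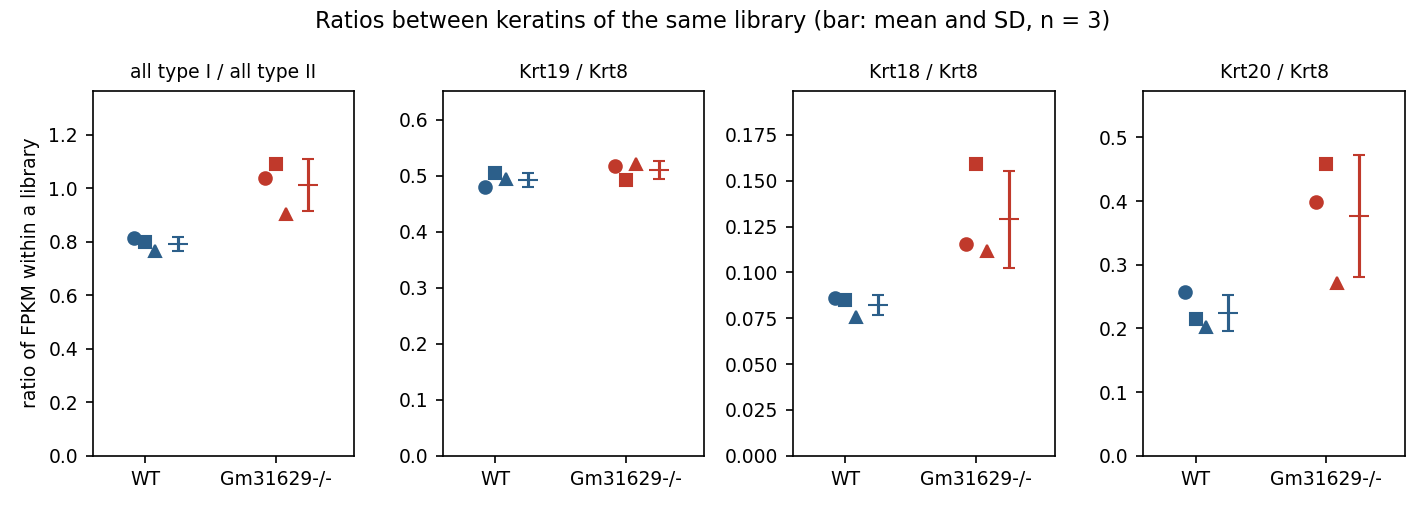
Ratios of FPKM between keratins of the same library, with a point for each mouse (blue for WT, red for Gm31629-/-) and the mean and SD (n = 3) beside the points, on linear axes from 0. Krt19 over Krt8 overlaps between the groups around 0.5, while the other 3 ratios are higher in every Gm31629-/- mouse, with type I over type II at 0.903 to 1.09 against 0.765 to 0.815.

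In these tissue samples, fewer epithelial cells and less keratin RNA per cell cannot be told apart. The epithelial adhesion genes Epcam and Cdh1 had overlapping groups, at 990 to 1179 against 1007 to 1164 FPKM for Epcam. Their log2 fold changes of 0.005 and -0.04 were the smallest among 15 epithelial marker genes, so they do not stand for the whole list. Krt8 was 1.40, 2.16, and 2.02 times Epcam in Gm31629-/- mice and 3.68, 3.72, and 4.03 times Epcam in WT mice, and relative to Cdh1 it was 4.73 to 5.44 against 10.2 to 10.6. Krt18 relative to Epcam overlapped between the groups, at 0.162 to 0.345 against 0.305 to 0.317. Of the 15 epithelial marker genes, 4 (Cdx2, Esrp1, Hnf4a, and Cdx1) were called lower (4.64% of all genes) and none higher (18.4% of all genes). The list summed to 4103 to 5248 FPKM in Gm31629-/- mice against 5995 to 6591 FPKM in WT mice. Among the 15, 10 were lower in every Gm31629-/- mouse than in any WT mouse (21.5% of all genes). Only 1 was higher in every one (36.3% of all genes). After scaling to these 15 genes, the log2 fold changes of Krt8, Krt19, and Krt7 were -0.40, -0.35, and -0.42 (limma adjusted p = 0.211, 0.244, and 0.326), and none was called, while the median of all genes was 0.64. Those of Krt18 and Krt20 changed sign, to 0.23 and 0.32. This scaling takes the mean log2 level of the 15 genes. Cdx2 had the largest change among them (log2 fold change -3.14, against a list median of -0.51), and a scaling without it was not run.

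**Figure D4:**
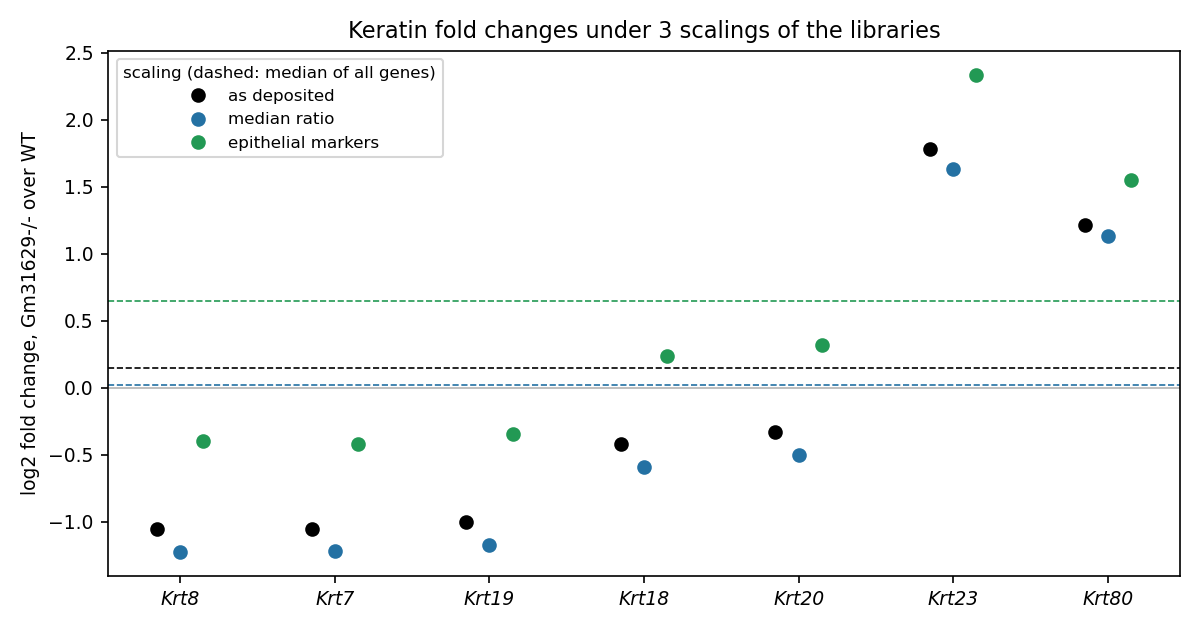
Log2 fold change (Gm31629-/- over WT) of the 5 simple keratins, Krt23, and Krt80 as deposited (black), with rescaling by the median ratio (blue), and with rescaling to 15 epithelial markers (green), where dashed lines give the median over all tested genes in each case. All 5 simple keratins are below the dashed line of each scaling, and Krt18 and Krt20 are above 0 with epithelial scaling only.

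Among keratins outside the simple class, Krt23 showed the clearest difference. Krt23 (ENSMUSG00000006777, chromosome 11, 99477974 to 99493137), a type I keratin known from colon tumor cells, had 22.0, 11.7, and 11.4 FPKM in Gm31629-/- mice and 3.25, 4.01, and 3.20 FPKM in WT mice. All 3 Gm31629-/- mice were above all 3 WT mice, and mouse 1 was the highest. In limma the log2 fold change was 1.78 with a standard error of 0.26 (adjusted p = 0.00226), and it stayed called in all 6 fits without 1 mouse, with log2 fold changes of 1.49 to 1.93. It was also called in each of the 9 other alternatives tried. Krt23 lies within the type I cluster, near Krt20, and its ratio to Krt20 was 0.0334, 0.0119, and 0.0180 in Gm31629-/- mice against 0.00301, 0.00430, and 0.00390 in WT mice.

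Krt80 (ENSMUSG00000037185), a type II keratin found in many epithelia, had 0.950, 5.44, and 1.81 FPKM in Gm31629-/- mice and 0.366, 0.595, and 0.2999 FPKM in WT mice. Krt80, like Krt90 and Krt222 below, had passed the filter only through the Gm31629-/- mice. The direction of these genes was thus set by the filter, and their p-values and calls are given as a description only. For Krt80 the groups did not overlap, and mouse 2 stood above the other Gm31629-/- mice. In limma the log2 fold change was 1.21 with a standard error of 0.41 (adjusted p = 0.0475), but of the 6 fits without 1 mouse only that without Gm31629-/- mouse 1 called it. The adjusted p was 0.0818 without Gm31629-/- mouse 3 and 0.118, 0.0883, and 0.138 without WT mice 1 to 3, and the log2 fold change was 0.73 without Gm31629-/- mouse 2. Krt90 (ENSMUSG00000048699), another gene of the type II cluster, had 0.515, 14.8, and 3.85 FPKM in Gm31629-/- mice and 0.192, 0.153, and 0.0210 FPKM in WT mice. Its group means differed by far more than those of Krt80, but the Gm31629-/- mice ranged so widely that it was not called (2.12 on the log2 scale, SE 0.74, limma adjusted p = 0.0532). Without Gm31629-/- mouse 1 it was called (2.97, adjusted p = 0.00419). Krt222, a divergent type I gene, had 1.16, 0.856, and 0.314 FPKM in Gm31629-/- mice and 0.246, 0.321, and 0.162 FPKM in WT mice, which overlapped (limma adjusted p = 0.0982).

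Squamous keratins were scarce in both groups. All 15 together summed to 4.96, 6.51, and 3.65 FPKM in Gm31629-/- mice and to 1.35, 1.596, and 1.39 FPKM in WT mice, higher in each Gm31629-/- mouse. All 3 tested had passed the filter only through the Gm31629-/- mice, so their direction was set by the filter. Their p-values and calls are given as a description only. None of the 3 was called by limma, while 2 had an unadjusted p under 0.05 and 2 were called by limma's voom on recovered fragments. Krt14, the type I keratin of basal cells, had 1.42, 1.97, and 0.526 FPKM in Gm31629-/- mice and 0.0615, 0.284, and 0.242 FPKM in WT mice, which did not overlap. Its log2 fold change was 0.90 (limma adjusted p = 0.0276), under the fold threshold, on a log2(FPKM + 1) scale that understates the change of low values. Without Gm31629-/- mouse 3 it was called (1.17, adjusted p = 0.00439), and in the other 5 fits without 1 mouse the adjusted p was 0.0563 to 0.0918. Krt17, a type I keratin of hair follicles and injured skin, had 59, 14, and 22 fragments in Gm31629-/- mice and 0, 2, and 0 in WT mice. In FPKM this was 2.07, 0.489, and 0.772 against 0, 0.0716, and 0, with a log2 fold change of 0.97 (limma adjusted p = 0.0243). It was called without Gm31629-/- mouse 2 (1.19, adjusted p = 0.0128) and without Gm31629-/- mouse 3 (1.06, adjusted p = 0.0402), while without any 1 of the WT mice the adjusted p was 0.0594 to 0.082. Krt13, the type I keratin of internal stratified epithelium, had 0, 1.79, and 0.598 FPKM in Gm31629-/- mice and 0.445, 0.244, and 0.205 FPKM in WT mice, and the groups overlapped. Its log2 fold change of 0.35 (limma adjusted p = 0.449) turned to -0.03 without Gm31629-/- mouse 2 and was 0.71 without Gm31629-/- mouse 1.

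The type II keratins with which these 3 type I genes pair were at or near 0. Krt5, which pairs with KRT14 in basal cells, had 2, 6, and 5 fragments in Gm31629-/- mice and 0 in each WT mouse, where a count of 0 allows up to 3 fragments. Krt4, the partner of KRT13, had 1 fragment in all, in WT mouse 3. Krt6b had 0, 11, and 2 fragments in Gm31629-/- mice against 0, 3, and 0 in WT mice, and its near-identical copy Krt6a could share these. Krt6a had 0, 11.8, and 3.2 fragments in Gm31629-/- mice against 0, 1.1, and 4.3 in WT mice, and both copies overlapped between the groups. The type I gene Krt16, which pairs with KRT6 in injured skin, had 0, 7, and 2 against 0 in each WT mouse. The markers of stratified squamous epithelium other than keratins did not move together. Trp63, the master regulator of that epithelium, was at most 0.0194 FPKM in Gm31629-/- mice and 0 in WT mice. Dsg3 was 0.172 to 0.383 FPKM against 0, and Dsc3 was 0.0905 to 0.130 FPKM against 0. Lypd3 and Fat2 went the other way. Lypd3 was 0 to 0.0329 FPKM in Gm31629-/- mice against 0.101 to 0.197 FPKM in WT mice, and Fat2 was 0 against 0.0344 to 0.0952 FPKM. Of the 12 markers 6 were tested, and 1 (Pkp1) was called lower (4.64% of all genes) and none higher (18.4% of all genes). Of the 6, 3 were lower in every Gm31629-/- mouse than in any WT mouse (21.5% of all genes). None was higher in every one (36.3% of all genes). The summed level of the 12 overlapped between the groups, at 282 to 452 against 406 to 488 FPKM.

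Hair keratins followed neither direction. Krt36, a type I hair and tongue keratin, had 1.43, 7.82, and 2.08 FPKM in Gm31629-/- mice and 1.36, 1.16, and 1.05 FPKM in WT mice, where mouse 1 lay just above the WT range (limma adjusted p = 0.148). Krt84, a type II keratin of hair cuticle and tongue, had 0.381, 6.20, and 1.19 FPKM in Gm31629-/- mice and 1.22, 1.92, and 2.15 FPKM in WT mice. Only mouse 2 was above the WT mice, the other two being below, and the log2 fold change was 0.03 (limma adjusted p = 0.971), which turned to -0.65 without Gm31629-/- mouse 2 and to -0.12 without WT mouse 1. Krt87, a type II hair keratin, had 1.10, 1.96, and 1.16 FPKM in Gm31629-/- mice and 4.03, 1.92, and 2.62 FPKM in WT mice, and the groups overlapped (log2 fold change -0.66, limma adjusted p = 0.0681). None of these 3 was called by limma or by voom, and 1 had an unadjusted p under 0.05. The hair follicle markers other than keratins gave no test, since 5 of 8 were listed and none passed the filter. Their summed level was 0.886 to 1.04 FPKM in Gm31629-/- mice and 0.355 to 0.518 FPKM in WT mice.

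**Figure D5:**
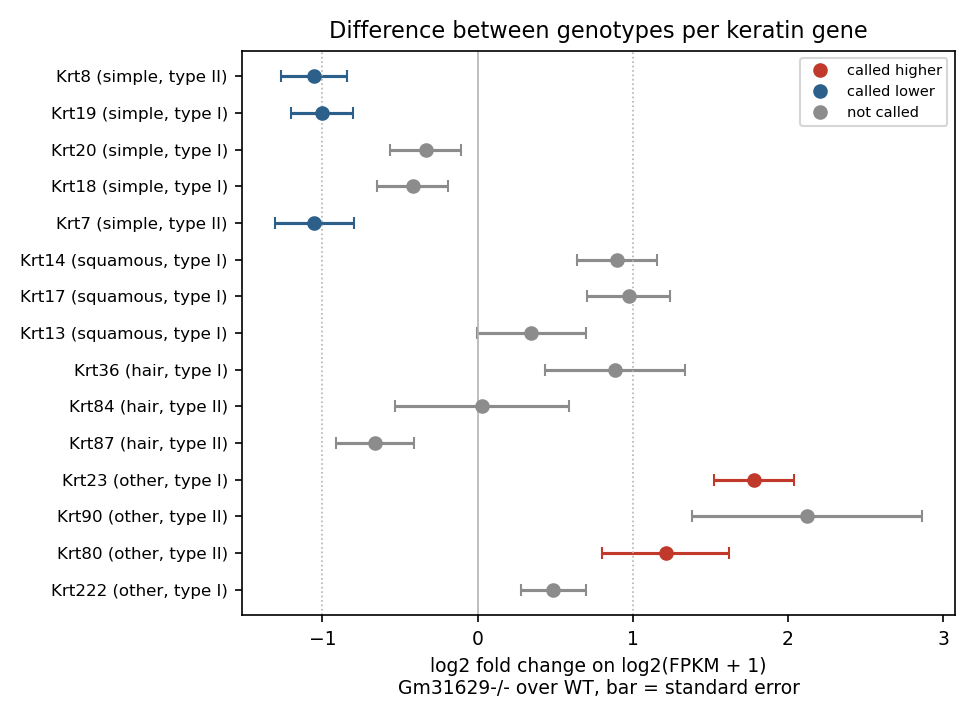
Log2 fold change (Gm31629-/- over WT, on log2(FPKM + 1)) of the 15 tested keratins with its standard error, in blue for genes called lower, red for genes called higher, and gray for genes not called, with dotted lines at -1 and 1. The 3 blue genes are simple keratins near -1, and the red genes are Krt23 at 1.78 and Krt80 at 1.21.

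The mouse with the highest value differed between keratins. Of the 10 tested keratins that are not simple, 6 had their highest value in Gm31629-/- mouse 2 (Krt13, Krt14, Krt36, Krt80, Krt84, and Krt90) and 3 in mouse 1 (Krt17, Krt23, and Krt222). Over all 14657 tested genes, 28.9% were highest in Gm31629-/- mouse 2 and 3585 genes in mouse 1. Among the 10 keratins, Krt13, Krt14, Krt17, Krt80, Krt90, and Krt222 had passed the filter only through the Gm31629-/- mice. Nothing is therefore read from these counts. Of the simple keratins, 2 were highest in WT mouse 1 and 3 in WT mouse 2, where 1294 and 1455 of all tested genes were. Mesothelial markers varied between the Gm31629-/- mice, with a summed level of 24.2, 45.8, and 4.95 FPKM in mice 1 to 3. In WT mice their summed level was 2.51 to 3.02 FPKM. Of 8 such markers 4 were tested, and 3 (Msln, Upk3b, and Rspo1) were called higher (18.4% of all genes) and none lower (4.64% of all genes). Upk3b and Rspo1 had passed the filter only through the Gm31629-/- mice, so their direction was set by the filter. Wt1 was at 0 in WT mice and at 0.00879 to 1.27 FPKM in Gm31629-/- mice. Mesothelium also makes simple keratins, and its part in the keratin values was not tested.

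The 23 keratins below the filter had a mean of at most 0.458 FPKM (Krt10), followed by Krt15, Krt27, and Krt78. Of these, 12 had no library with more than 3 fragments, 9 were at 0 in all WT mice, and 2 (Krt4 and Krt86) at 0 in all Gm31629-/- mice. Together they had 74, 117, and 79 fragments in Gm31629-/- mice and 44, 59, and 60 in WT mice. Krt10, the type I keratin of upper skin layers, had 22, 17, and 18 fragments in Gm31629-/- mice against 21, 13, and 16 in WT mice, and Krt15, of basal cells, 14, 15, and 7 against 9, 11, and 10, so both overlapped. Krt27, an inner root sheath keratin, went the other way, with 0, 5, and 2 fragments in Gm31629-/- mice and 12, 17, and 16 in WT mice. Krt78, a type II keratin of stratified epithelium, had 6, 25, and 18 fragments in Gm31629-/- mice and 0, 6, and 4 in WT mice, and the groups met at 6.

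Keratin filaments are anchored at desmosomes, which join neighboring epithelial cells. Of 22 desmosome and linker genes 15 were tested, 4 were called lower (4.64% of all genes) and none higher (18.4% of all genes), and the median log2 fold change was -0.52, against 0.15 for all genes. Pkp1, a desmosomal plaque gene, had 0.270, 0.831, and 0.542 FPKM in Gm31629-/- mice and 8.35, 7.59, and 10.4 FPKM in WT mice, with no overlap (log2 fold change -2.67, limma adjusted p = 0.000281). Dsp, which ties keratin filaments to the plaque, had 45.1, 34.4, and 45.3 FPKM against 79.8, 104, and 77.8 FPKM (log2 fold change -1.05, limma adjusted p = 0.00422). Dsc2, a desmosomal cadherin, and Pkp2 had log2 fold changes of -1.09 and -1.01 (limma adjusted p = 0.00508 and 0.00699). Plec, the general filament linker, had 52.8 to 75.7 against 54.3 to 75.7 FPKM, nearly the same range. After scaling to epithelial markers 1 of the 4 was called lower, and without WT mouse 2 there were 2.

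Other intermediate filament genes include those of muscle, neurons, glia, and the nuclear lamina. Of 16 listed, 13 were tested, and 8 were called higher (18.4% of all genes) and 2 lower (4.64% of all genes). Of the 8, 6 had passed the filter only through the Gm31629-/- mice (Gfap, Prph, Nefl, Ina, Nes, and Synm), so that their direction was set by the filter and the count is read as a description only. Des, the filament of muscle, had 215, 132, and 137 FPKM in Gm31629-/- mice and 0.403, 1.997, and 0.964 FPKM in WT mice (log2 fold change 6.29, limma adjusted p = 0.000111). Prph and Gfap, of peripheral neurons and glia, had log2 fold changes of 5.06 and 3.32, and Synm, a muscle filament gene, 3.78. Prph had 40.6, 57.8, and 15.1 FPKM in Gm31629-/- mice and 0, 0, and 0.0571 FPKM in WT mice. The 2 lower genes were Lmnb1 and Lmnb2, of the nuclear lamina, at -1.44 and -1.27, which were named after their values had been seen. Without WT mouse 1 or WT mouse 3 the calls were 5 higher and 1 lower, and after scaling to epithelial markers 10 higher and 0 lower.

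Genes of squamous differentiation and of the cornified envelope, the cross-linked protein layer of skin cells, gave 15 tested of 46 and 31 listed, with 3 called higher (18.4% of all genes) and none lower (4.64% of all genes). The share called higher is near that of all genes, and Dmkn and Tgm1, which make up 2 of the 3, had passed the filter only through the Gm31629-/- mice. Tgm3, a transglutaminase that cross-links this layer, had 226, 175, and 452 FPKM in Gm31629-/- mice and 17.4, 4.54, and 9.44 FPKM in WT mice, with no overlap (log2 fold change 4.69, limma adjusted p = 0.000714). Dmkn and Tgm1 had log2 fold changes of 1.96 and 1.496 (limma adjusted p = 0.00806 and 0.0131), from at most 0.228 FPKM in any WT mouse. Sprr2a3, a small proline-rich envelope gene and the gene of highest mean FPKM in the list, had 226, 284, and 214 FPKM against 138, 169.6, and 141 FPKM (log2 fold change 0.68, limma adjusted p = 0.0172, not called), and reads of its near-identical copies Sprr2a1 and Sprr2a2 could be shared. Of the 15, 6 were higher in every Gm31629-/- mouse than in any WT mouse (36.3% of all genes) and 3 were lower in every one (21.5% of all genes). The 3 were Sfn, Perp, and Cdsn, at log2 fold changes of -0.71, -0.38, and -0.29, and none was called. Of the 15, 4 had passed the filter only through the Gm31629-/- mice. Without Gm31629-/- mouse 2 the calls were 4 higher and 1 lower, and without Gm31629-/- mouse 3 they were 5 higher.

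Of 17 transcription factors of squamous and barrier epithelium 8 were tested, and 1 was called higher (18.4% of all genes) and 3 lower (4.64% of all genes), with a median log2 fold change of -0.87. Pitx1, a homeobox gene, had 6.51, 21.8, and 21.6 FPKM in Gm31629-/- mice and 0.672, 2.13, and 1.06 FPKM in WT mice (log2 fold change 2.83, limma adjusted p = 0.00346). Klf5, Ovol2, and Grhl2 had log2 fold changes of -1.11, -1.08, and -1.04 (limma adjusted p = 0.00362, 0.0121, and 0.00282). The calls were 1 higher and 2 lower without Gm31629-/- mouse 1, and without Gm31629-/- mouse 2 they were 1 higher and 1 lower, and after scaling to epithelial markers 1 higher and none lower.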

How the data were processed

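RNA-Seq libraries of distal colon tissue from 3 Gm31629-/- and 3 WT mice, all given DSS, were analyzed. The deposited table gives FPKM, made by the authors, of 27546 genes in each mouse. The submitters' processing notes name HISAT2 2.1.0, HTSeq 0.6.0, and GRCm38, and the annotation is not given in the sources used here. Samples were grouped by their labels. Symbols, positions, and exon lengths came from GENCODE M21, which matched 27488 genes. Fragments per value were recovered from exon length and depth, and of the values up to 20 fragments 96.3% to 97.3% were whole within 0.1. Depth was 18006000 to 18795300 fragments, and a value of 0 allows up to 3 fragments, by counting error only. FPKM is not corrected for transcripts that take up much of a library.

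Genes were compared with limma 3.58.1 in R 4.3.3 (eBayes with trend on lmFit) after log2(FPKM + 1), which understates changes of genes with low values, for genes with a mean of at least 0.5 FPKM. P-values were adjusted by Benjamini-Hochberg over all 14657 genes, and the script was tested on simulated data. The study used DEGseq, which was not repeated. The unit fitted the planned test. For 3 mice against 3, an exact permutation test of a single value cannot give p below 0.1, so none was run. Members, classes, and gene lists were chosen with earlier results of these data known. All keratins that passed the filter are named, the others by counts with the 4 of highest mean FPKM, and of each list the 4 called genes of largest change, filled up by mean FPKM. Further keratins and markers were named after their values were seen. Promoter sequences are from RefSeq (GRCm38.p6). Alternatives were a pseudocount of 0.1, no filter, a filter at 5 FPKM, 3 rescalings, eBayes without a trend, voom on recovered fragments, the replicate number as a block, and leaving out each mouse. Marker genes of skeletal muscle and urothelium were also read. Of 6 skeletal muscle markers 3 were tested and 1 was called higher (18.4% of all genes). That gene, Ckm, had passed the filter only through the Gm31629-/- mice, so its direction was set by the filter. Of 5 markers of urothelium and prostate 1 was tested and none called by limma, with 1 at an unadjusted p under 0.05 and none by voom. Figures were drawn with matplotlib 3.10.9.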

Additional observations from a re-analysis of the deposited data

How the results depend on the processing

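The direction of the fold change was kept in 207 of 216 refits of the 15 tested keratins. It turned for Krt84 with a pseudocount of 0.1 (-0.21), the median ratio (-0.0749), voom (-0.28), and without 1 mouse (-0.65 to 0.54, below 0 without Gm31629-/- mouse 2 or WT mouse 1), for Krt13 with voom (-0.22) and without Gm31629-/- mouse 2 (-0.034, against 0.71 without Gm31629-/- mouse 1), and for Krt18 and Krt20 with epithelial scaling (0.23 and 0.32). The count of keratins called, 5 as reported, was 8 with a pseudocount of 0.1 and 3 without the filter, and 3 to 5 without 1 mouse. With epithelial scaling it stayed 5, but as 5 higher and 0 lower in place of 2 and 3. Simple keratins called, 3 as reported, came to 0 with epithelial scaling and to between 0 and 3 without 1 mouse. Squamous keratins called, 0 as reported, were 2 with a pseudocount of 0.1, with epithelial scaling, and with voom, and 0 to 2 without 1 mouse. Over all genes, 1449 were called at a filter of 5 FPKM, which tests fewer genes, in place of 3384. Squamous differentiation genes called, 3 as reported, were 5 with a pseudocount of 0.1, 1 at a filter of 5 FPKM, 9 with epithelial scaling, 5 with voom, and 2 to 5 without 1 mouse. With epithelial scaling 1 desmosome gene and 1 transcription factor were called, in place of 4 each, and without 1 mouse 2 to 4 and 2 to 5. Other filament genes called were 6 to 10 without 1 mouse. Epithelial scaling moved the log2 difference of summed simple keratins from -0.89 to -0.24 and that of squamous keratins from 1.77 to 2.42. Apart from scaling and filters, whose construction changes the values tested, the cause was not tested. With the replicate number as a block (replicate block), 6 keratins were called in place of 5, Krt90 being added at a log2 fold change of 2.12 (limma adjusted p = 0.0483), and over all genes 3357 in place of 3384. Deviations of same-numbered mice correlated at 0.036, -0.108, and 0.014, within the -0.13 to 0.12 of differently numbered mice. The numbers thus gave no sign of pairing, which these few values cannot exclude. Depth limits the 23 keratins below the filter, 12 of which never exceeded 3 fragments.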
